A study of Mus musculus with 16 samples.

Results

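E proteins, Id proteins and their blood-forming partners were described in 16 bulk RNA-seq libraries of MPP3 and MPP4 cells, which are multipotent progenitors of mouse bone marrow biased toward myeloid and lymphoid fates, respectively. The 10 genes were taken by name from the family: the E proteins Tcf3, Tcf4 and Tcf12, the Id inhibitors Id1, Id2 and Id3, the tissue-restricted bHLH partners Tal1 and Lyl1, and the LIM factors Lmo2 and Ldb1. All 10 were found among the 47937 genes of the count tables, and 9 of them were tested, having averaged over 100 counts in at least 1 of 4 groups. Id3 was not tested, with 12 to 123 counts per library.

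Each group held 4 libraries, 1 per replicate, from C57BL/6 mice aged 11 to 12 weeks in WT and 9 to 11 weeks in KO, so age went partly with genotype, with 2 females and 2 males per genotype. The genotype label was Ebf1fl/fl Tie2Cre+/+ for WT and Ebf1fl/fl Tie2Cre +/cre for KO, where Tie2Cre is a Cre active in endothelium and in adult haematopoietic stem cells. The design text of the series instead placed Tie2Cre in both genotypes and floxed Ebf1 in the KO mice alone, so the control genotype is not settled here. MPP3 cells were sorted as lineage-depleted Sca-1+ Kit+ CD150- CD48+ cells and MPP4 cells as the same cells that were also Flt3+, and the labels state no Flt3 gate for MPP3. Libraries with the same genotype and replicate number shared sex and age, and their deviations from the group means correlated in every pair, so they were taken as pairs and are called WT1 to WT4 and KO1 to KO4.

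E proteins are basic helix-loop-helix (bHLH) transcription factors that bind the E box, the DNA motif CANNTG, as dimers. In lymphoid progenitors they drive genes of B and T cell specification. Id proteins have the helix-loop-helix but no basic region, so an E protein bound to an Id protein cannot bind DNA, and the ratio of Id to E protein sets how much E protein is active. In stem cells and in erythroid and megakaryocytic cells, TAL1 or LYL1 pairs with an E protein, and LMO2 and LDB1 bridge that pair to GATA factors.

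Promoter windows of 300 bases, 250 before and 50 after an annotated start, are shown for 1 member of each of 3 roles, an E protein, an Id inhibitor and a bHLH partner, to place the E box these factors read beside their own genes. They are RefSeq sequences of GRCm38.p6, written 5′ to 3′ on the gene's strand, with each CANNTG in capitals. The motif is its own reverse complement, so a search of either strand finds the same sites.
Tcf3, chr10:80433586-80433885, minus strand: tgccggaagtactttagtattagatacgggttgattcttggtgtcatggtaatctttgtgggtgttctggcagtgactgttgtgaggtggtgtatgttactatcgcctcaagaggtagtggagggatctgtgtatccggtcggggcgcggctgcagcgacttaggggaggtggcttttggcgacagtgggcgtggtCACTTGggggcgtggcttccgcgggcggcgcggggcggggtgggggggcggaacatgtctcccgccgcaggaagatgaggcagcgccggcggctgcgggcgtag
Id2, chr12:25096043-25096342, minus strand: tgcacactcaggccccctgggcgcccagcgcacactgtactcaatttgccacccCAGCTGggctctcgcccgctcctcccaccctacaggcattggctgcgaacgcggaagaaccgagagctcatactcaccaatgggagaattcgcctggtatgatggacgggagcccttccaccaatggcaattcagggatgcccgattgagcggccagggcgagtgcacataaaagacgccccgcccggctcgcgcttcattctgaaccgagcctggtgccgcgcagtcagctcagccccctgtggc
Tal1, chr4:115056176-115056475, plus strand: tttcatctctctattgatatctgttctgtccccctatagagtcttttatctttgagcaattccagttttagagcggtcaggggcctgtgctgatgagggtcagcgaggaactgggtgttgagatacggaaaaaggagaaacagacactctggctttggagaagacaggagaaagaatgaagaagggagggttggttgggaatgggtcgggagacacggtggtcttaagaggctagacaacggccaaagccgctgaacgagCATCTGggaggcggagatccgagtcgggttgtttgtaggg
Each of these windows held 1 E box: CACTTG for Tcf3, CAGCTG for Id2 and CATCTG for Tal1. A second Tal1 window, chr4:115057561-115057860, held 0. Of 32851 promoter windows of this length, 72.3% held at least 1 CANNTG and 32.7% held exactly 1, so a window with the motif was the common case. Windows were available for 7 members, and 8 of their 12 windows held the motif. A match is a description of the letters and no evidence of binding.

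The sorted populations and the targeted gene were checked first. Flt3 lay between 205 and 313 CPM (counts scaled to the normalised library size) in the 8 MPP3 libraries and between 938 and 1362 CPM in the 8 MPP4 libraries, and Kit was at 381 CPM or more in each. Library totals ranged from 24823708 to 48703193 counts. In MPP3, Ebf1 ranged from 5 to 91 counts under the WT label and from 6 to 84 under the KO label. In MPP4 it ranged from 98 to 263 counts under WT and from 488 to 928 under KO, against the direction of the label, so every KO direction below rests on the labels alone. Summed markers, 5 genes a list, overlapped in each comparison for mature B cells (67.8 to 91.0 CPM), T cells (3.83 to 13.9 CPM), erythroid cells (7.66 to 67.6 CPM) and endothelium (167 to 218 CPM). Neutrophil markers were 11.5 to 46.3 CPM in MPP3 WT, 8.98 to 75.1 CPM in MPP3 KO, 1.48 to 8.42 CPM in MPP4 WT and 3.14 to 13.3 CPM in MPP4 KO. The plasma cell list summed to 302 to 1324 CPM in MPP3 WT, 140 to 340 CPM in MPP3 KO and 1162 to 1409 CPM in MPP4, but its genes ran in different directions. Ighm had means of 434 CPM in MPP3 WT and 1123 CPM in MPP4 WT, while Igkc had 223 and 5.68 CPM and Jchain 70.0 and 2.07 CPM. Under the KO label Ighm had 165 CPM in MPP3 and 1193 CPM in MPP4, Igkc 15.3 and 0.0556 CPM, and Jchain 5.25 and 1.17 CPM. In MPP3 KO, Igkc ran from 0 to 61.2 CPM and Jchain from 0 to 20.6 CPM, so the highest library carried nearly all of each mean.

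**Figure D1:**
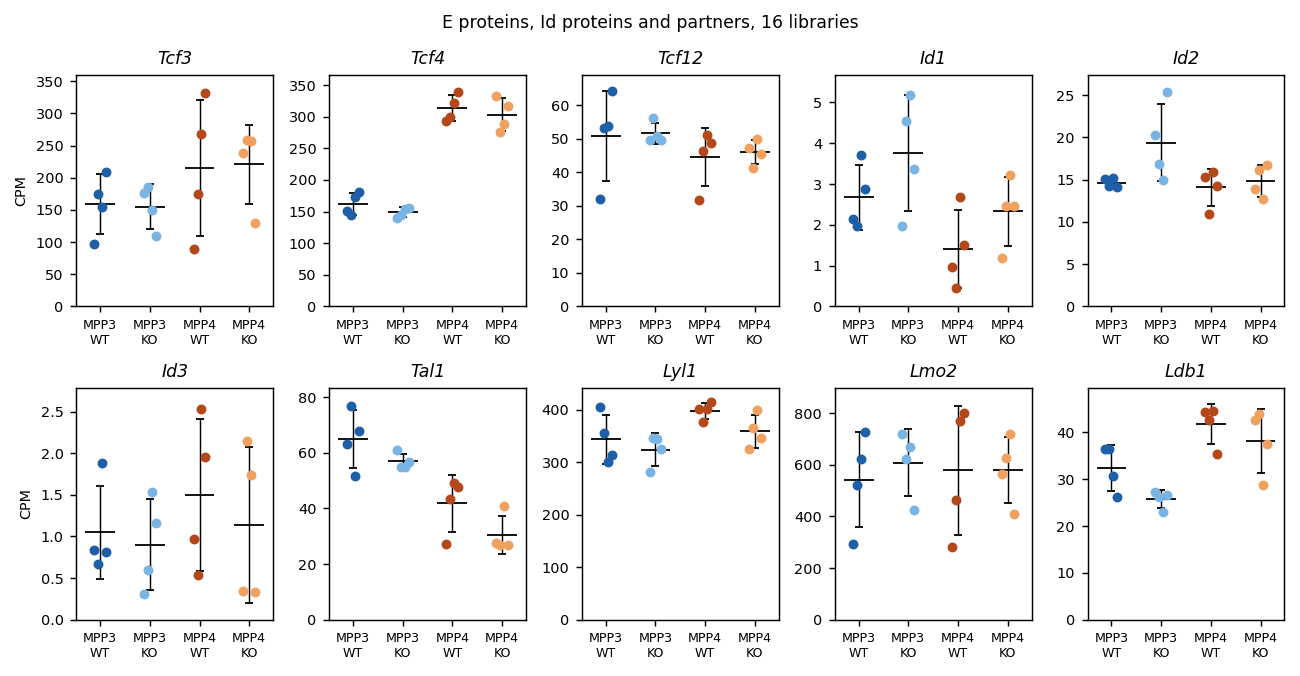
Level of each of the 10 members (y axis, CPM, from 0) in the 16 libraries, by group (x axis). Points are libraries, drawn left to right by replicate number, the wide bar is the group mean and the whiskers are 1 SD (n = 4). Tcf4 separates MPP3 (141 to 181 CPM) from MPP4 (276 to 339 CPM), while Tcf3 and Lmo2 vary as much within groups as between them.

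Divided by the length of merged exons, the order of the mean levels over all 16 libraries was Lmo2 (267 CPM per kb), Lyl1 (198), Tcf3 (46.4), Tal1 (11.1), Tcf4 (8.47), Ldb1 (7.50), Id2 (6.46), Tcf12 (3.10), Id1 (2.19) and Id3 (0.641). The middle of that order depended on the population. In MPP3 WT the per-kb levels were 14.8 ± 2.37 for Tal1, 7.04 ± 1.07 for Ldb1, 6.01 ± 0.217 for Id2 and 5.91 ± 0.642 for Tcf4 (SD, n = 4), with the last 3 within or near each other's spread. In MPP4 WT they were 11.45 ± 0.760 for Tcf4, 9.55 ± 2.32 for Tal1, 9.06 ± 0.925 for Ldb1 and 5.78 ± 0.910 for Id2, so that on this scale Tcf4 and Tal1 changed places. Per kb of the longest transcript Tcf4 was above Tal1 in both, at 18.9 ± 2.05 against 15.4 ± 2.46 in MPP3 WT and 36.6 ± 2.43 against 9.93 ± 2.41 in MPP4 WT. Tcf4 depends most on the length used, because its annotated exons add up to 27.382 kb while its longest transcript has 8577 bases. Per kb of the longest transcript it reached 27.0 CPM, ahead of Tal1 at 11.5 and Ldb1 at 11.0.

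Among the E proteins, Tcf4 separated the populations. Tcf4 (ENSMUSG00000053477, GRCm38 chromosome 18, 69343356 to 69689079, plus strand) encodes the E protein that specifies plasmacytoid dendritic cells. Its levels were 151, 144, 172 and 181 CPM in MPP3 WT and 294, 300, 321 and 339 CPM in MPP4 WT. In the libraries labelled KO they were 141, 145, 154 and 156 CPM in MPP3 and 333, 276, 288 and 317 CPM in MPP4. No MPP3 library reached the lowest MPP4 library in either genotype. Tcf4 was 1.94-fold higher in MPP4 than in MPP3 of WT mice (MPP3 against MPP4, log2 fold change -0.95 ± 0.08 SE, edgeR FDR 6.66e-07) and 2.04-fold higher in those labelled KO (-1.03 ± 0.08, FDR 3.1e-07). The within-pair difference was negative in 8 of 8 pairs, from -1.24 to -0.90. In bulk samples, a larger share of cells with Tcf4 and more Tcf4 RNA per cell cannot be told apart. Summed markers of plasmacytoid dendritic cells, a list of 5 genes, were 98.3 to 135 CPM in MPP3, 144 to 172 CPM in MPP4 WT and 177 to 231 CPM in MPP4 KO, with Klk1 at 0 in all 16 libraries. Their part in the Tcf4 difference was not tested.

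Tcf3 (ENSMUSG00000020167, chromosome 10, 80409514 to 80433647, minus strand), the E protein required for B cell commitment, had a higher mean in MPP4 but overlapped widely between groups. Its levels were 96.8, 174, 155 and 208 CPM in MPP3 WT and 88.9, 175, 267 and 331 CPM in MPP4 WT. In the libraries labelled KO they were 176, 186, 149 and 109 CPM in MPP3 and 238, 259, 256 and 129 CPM in MPP4. The lowest library of every group belonged to pair WT1 or KO4. The log2 fold change of MPP3 against MPP4 was -0.44 ± 0.33 in WT (edgeR FDR 0.496) and -0.51 ± 0.33 in KO (FDR 0.384), and MPP4 was the higher member of the pair in 7 of 8 pairs. With the replicate block, a fit that compares the populations within pairs, the values were -0.34 ± 0.13 (FDR 0.0909) and -0.48 ± 0.13 (FDR 0.0165), so Tcf3 passed the threshold of 0.1 in both genotypes there.

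Tcf12 (ENSMUSG00000032228, chromosome 9, 71842688 to 72111871, minus strand), which encodes HEB, an E protein of T cell development, lay between 31.8 and 64.1 CPM. It ran opposite to Tcf4, with the higher level in MPP3 in 8 of 8 pairs, but by small amounts (0.0096 to 0.44 on the log2 scale). Neither population contrast passed the test (0.19 ± 0.17, edgeR FDR 0.596 in WT, and 0.17 ± 0.17, FDR 0.630 in KO). Per kb of merged exons, Tcf3 made up 80.4% ± 3.35 of the E protein transcripts in MPP3 WT and 76.1% ± 9.27 in MPP4 WT (SD, n = 4). The Tcf4 share was 12.8% ± 3.35 and 19.3% ± 8.17, and per kb of the longest transcript 24.3% ± 5.38 and 34.0% ± 11.0.

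Of the Id inhibitors, Id1 and Id3 had the lowest levels per kb of all members, while Id2 lay above Tcf12. Id2 (ENSMUSG00000020644, chromosome 12, 25093799 to 25097140, minus strand), the Id protein needed by innate lymphoid cells, had 323 to 1010 counts per library and made up between 53.6% and 86.8% of Id transcripts per kb. It had 15.0, 14.2, 15.2 and 14.2 CPM in MPP3 WT and 20.3, 16.9, 15.0 and 25.4 CPM in MPP3 of KO. In MPP4 it had 15.3, 10.9, 15.9 and 14.2 CPM in WT and 13.9, 16.2, 12.7 and 16.7 CPM in KO. The MPP3 KO group spread more (SD 4.57 CPM) than MPP3 WT (SD 0.529 CPM). MPP3 against MPP4 did not pass the test in WT (0.056 ± 0.16, edgeR FDR 0.902). In KO the difference was 0.38 ± 0.16 (FDR 0.149), or 0.37 ± 0.14 with the replicate block (FDR 0.0721). Summed innate lymphoid markers were 51.1 to 76.4 CPM in MPP3 and 16.7 to 28.9 CPM in MPP4, carried by Gata3 and Zbtb16. Klrb1c of the same list was the lower in MPP3 of KO, at 0.955 to 2.12 CPM against 2.36 to 3.05 CPM in MPP4, and Ncr1 had at most 8 counts in any library. Their part was not tested.

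Id1 (ENSMUSG00000042745, chromosome 2, 152736251 to 152737410, plus strand), a target of BMP signalling, had only 13 to 195 counts per library. Its levels were 2.14, 1.97, 3.71 and 2.88 CPM in MPP3 WT and 0.968, 0.440, 2.68 and 1.51 CPM in MPP4 WT. In KO they were 1.96, 4.55, 5.17 and 3.37 CPM in MPP3 and 1.18, 2.46, 3.22 and 2.47 CPM in MPP4. Although groups overlapped, the MPP3 library of each pair was the higher in 8 of 8 pairs. The difference was 0.92 ± 0.47 in WT (edgeR FDR 0.265) and 0.69 ± 0.46 in KO (FDR 0.404), and with the replicate block 1.10 ± 0.31 in WT (FDR 0.0246) and 0.69 ± 0.30 in KO (FDR 0.127). Without MPP4 WT library 3, the highest of its group, the WT difference was 1.45 (edgeR FDR 0.0723), and without MPP4 WT library 2, the lowest, it was 0.64 (FDR 0.476).

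Id3 (ENSMUSG00000007872, chromosome 4, 136143497 to 136145755, plus strand), an Id protein induced by antigen receptor and TGF-beta signals, ranged over 8.08-fold among libraries, from 0.314 to 2.54 CPM. Within pairs it went both ways, from -1.84 to 1.81 on the log2 scale. In the fit of all genes with at least 1 count, which included it, MPP3 against MPP4 was -0.53 ± 0.66 in WT (edgeR FDR 0.809) and -0.33 ± 0.67 in KO (FDR 0.931). At 12 to 123 counts, a difference of that size was not detectable.

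The balance of Id to E protein transcripts was read in each library as the log2 ratio of summed counts per kb of merged exons. It was -1.90, -2.71, -2.20 and -2.83 in MPP3 WT and -2.18, -3.47, -2.99 and -3.57 in MPP4 WT. In the libraries labelled KO it was -2.35, -2.30, -2.001 and -1.37 in MPP3 and -3.42, -2.95, -3.11 and -2.34 in MPP4. Thus 8.41 to 38.8 Id transcripts were counted per 100 E protein transcripts, and E protein transcripts outnumbered Id transcripts in all 16 libraries.

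Group means of the balance were -2.41 ± 0.44 in MPP3 WT, -3.05 ± 0.63 in MPP4 WT, -2.004 ± 0.45 in MPP3 KO and -2.96 ± 0.45 in MPP4 KO (SD, n = 4). It was higher in MPP3 by 0.64 in WT and by 0.95 in KO, with overlapping libraries in both genotypes. In KO the overlap was narrow (lowest MPP3 library -2.35, highest MPP4 library -2.34), and the groups did not overlap per kb of the longest transcript (-2.78 and -3.02) or on raw counts (-4.14 and -4.66). Within pairs it was higher in MPP3 in 8 of 8 pairs, by 0.29 in WT1 and by 0.65 to 1.11 in the other pairs. KO exceeded WT by 0.41 in MPP3 and by 0.096 in MPP4, less than the pooled SD of 0.45 and 0.55. Pairs WT1 and KO4 had the highest balance of their groups in both populations. They also had the lowest Tcf3 of their groups, and KO4 had the highest Id2 of its groups (25.4 CPM in MPP3 and 16.7 CPM in MPP4). Tcf3 made up 63.3% to 84.1% of the E protein transcripts per kb of merged exons. Per kb of the longest transcript its share was 43.4% to 71.1%. The part of each gene in the balance was not tested. The balance is a score over genes chosen by name, so no test was made of it.

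**Figure D2:**
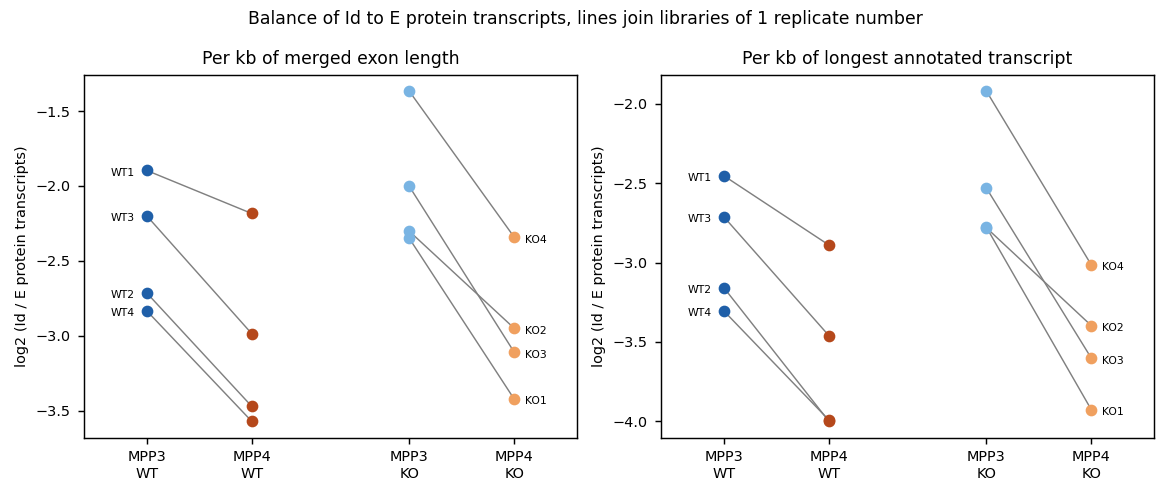
Log2 ratio of Id to E protein transcripts (y axis) in each library by group (x axis), with counts divided by merged exon length (left) or by the longest annotated transcript (right); lines join the MPP3 and MPP4 libraries of a pair. All 8 lines fall from MPP3 to MPP4 in both panels.

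The bHLH partners of the E proteins differed from each other. Tal1 (ENSMUSG00000028717, chromosome 4, 115056426 to 115071755, plus strand), the master regulator of blood specification and erythroid genes, had 63.2, 76.7, 51.8 and 67.9 CPM in MPP3 WT and 27.0, 43.4, 49.2 and 47.8 CPM in MPP4 WT. In the libraries labelled KO it had 60.9, 55.0, 55.0 and 56.8 CPM in MPP3 and 27.7, 26.9, 40.7 and 26.7 CPM in MPP4. MPP3 lay above MPP4 without overlap in both genotypes. Tal1 was 1.55-fold higher in MPP3 of WT (log2 fold change 0.63 ± 0.18, edgeR FDR 0.027) and 1.87-fold higher in MPP3 of KO (0.90 ± 0.18, FDR 0.00209), and MPP3 was the higher in 8 of 8 pairs, by 0.074 to 1.22. Without both libraries of pair WT2, an alternative chosen after seeing the data, the WT difference was 0.56 (FDR 0.131).

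Markers of lineages that express Tal1 moved with it. Summed megakaryocyte markers, 5 genes, were 96.1 to 148 CPM in MPP3 and 14.3 to 28.003 CPM in MPP4. The sum was carried by Itga2b, with means of 106 CPM in MPP3 WT and 12.5 CPM in MPP4 WT. Itga2b, Pf4 and Gp1ba did not overlap in either genotype. Gp9 overlapped in WT (9.42 to 14.1 CPM in MPP3 and 6.03 to 10.0 CPM in MPP4), and Ppbp overlapped in KO. Summed mast cell and basophil markers were 167 to 381 CPM in MPP3 and 19.2 to 36.0 CPM in MPP4, where Cma1 and Gzmb were at 0. The summed erythroid markers overlapped, but of their 5 genes Klf1 did not: it had 4.12 to 10.3 CPM in MPP3 WT and 1.81 to 4.096 CPM in MPP4 WT, and 4.55 to 11.8 CPM against 0.428 to 3.22 CPM in KO. Car1 had 14.0 to 24.8 CPM in MPP3 WT and 4.26 to 10.5 CPM in MPP4 WT, and overlapped in KO. The part of these lists in the Tal1 difference was not tested.

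Lyl1 (ENSMUSG00000034041, chromosome 8, 84701457 to 84704715, plus strand), a TAL1 relative that supports lymphoid progenitors, was among the steadiest members, at 280 to 414 CPM. It had the opposite sign to Tal1, with means of 344 ± 46.9 CPM in MPP3 WT and 398 ± 15.2 CPM in MPP4 WT (SD, n = 4). The difference was -0.21 ± 0.09 in WT (edgeR FDR 0.177) and -0.15 ± 0.09 in KO (FDR 0.372), and MPP4 was the higher in 7 of 8 pairs. With the replicate block it passed in WT (-0.22 ± 0.07, FDR 0.0335) and not in KO (-0.15 ± 0.07, FDR 0.144). Without MPP3 WT library 1, at 405 CPM the highest of its group, it also passed in WT (-0.30, FDR 0.0349). Per kb of merged exons, 13.1 ± 2.17 Lyl1 transcripts were counted per Tal1 transcript in MPP3 WT and 24.5 ± 7.75 in MPP4 WT, against 13.9 ± 1.91 and 29.2 ± 4.04 in KO.

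Ldb1 (ENSMUSG00000025223, chromosome 19, 46031570 to 46045214, minus strand), the adaptor that brings LMO2 complexes and distant enhancers together, was higher in MPP4. It had 36.4, 36.4, 30.7 and 26.2 CPM in MPP3 WT and 44.3, 42.7, 44.6 and 35.5 CPM in MPP4 WT. In KO it had 27.3, 26.2, 23.0 and 26.5 CPM in MPP3 and 42.6, 43.9, 28.8 and 37.5 CPM in MPP4, without overlap. The log2 fold change of MPP3 against MPP4 was -0.57 ± 0.14 in KO (1.48-fold, edgeR FDR 0.0106) and -0.37 ± 0.14 in WT (FDR 0.111), with MPP4 the higher in 8 of 8 pairs. In WT it passed with the replicate block (-0.37 ± 0.10, FDR 0.0153) and with DESeq2 (FDR 0.0833). Ldb1 shares 177 exon bases with Pprc1 on the other strand, and the use of strand in counting is not stated, so its counts can include reads of that gene.

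Lmo2 (ENSMUSG00000032698, chromosome 2, 103957986 to 103981878, plus strand), the LIM-only bridge of the complex, passed no test between populations. Its levels were 295, 523, 622 and 727 CPM in MPP3 WT and 283, 462, 768 and 802 CPM in MPP4 WT. In KO they were 718, 622, 669 and 425 CPM in MPP3 and 565, 627, 718 and 410 CPM in MPP4. In WT the libraries had the same order in both populations, while in KO pair KO4 was lowest in both and the others changed places. The within-pair difference lay between -0.30 and 0.35. The differences were -0.095 ± 0.30 in WT (edgeR FDR 0.909) and 0.068 ± 0.30 in KO (FDR 0.929). Per kb of merged exons, Lmo2 exceeded Ldb1 by 13.6 to 61.8 times in every library.

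In WT, edgeR called 2 of the 9 members tested between MPP3 and MPP4, Tcf4 lower and Tal1 higher in MPP3, where it called 15.1% of all 11831 genes. In KO it called 3 of 9, with Ldb1 added, where it called 17.9% of all genes. DESeq2 called 3 members in each genotype, against 16.6% and 19.7% of all genes. With the replicate block the members called were 6 in WT (Tcf3, Tcf4, Ldb1 and Lyl1 lower in MPP3, Tal1 and Id1 higher) and 5 in KO (Tcf3, Tcf4 and Ldb1 lower, Tal1 and Id2 higher), against 24.8% and 28.3% of all genes. Groups did not overlap for 2 of 10 members in WT and 3 of 10 in KO, and for 15.9% and 17.2% of all genes tested.

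**Figure D3:**
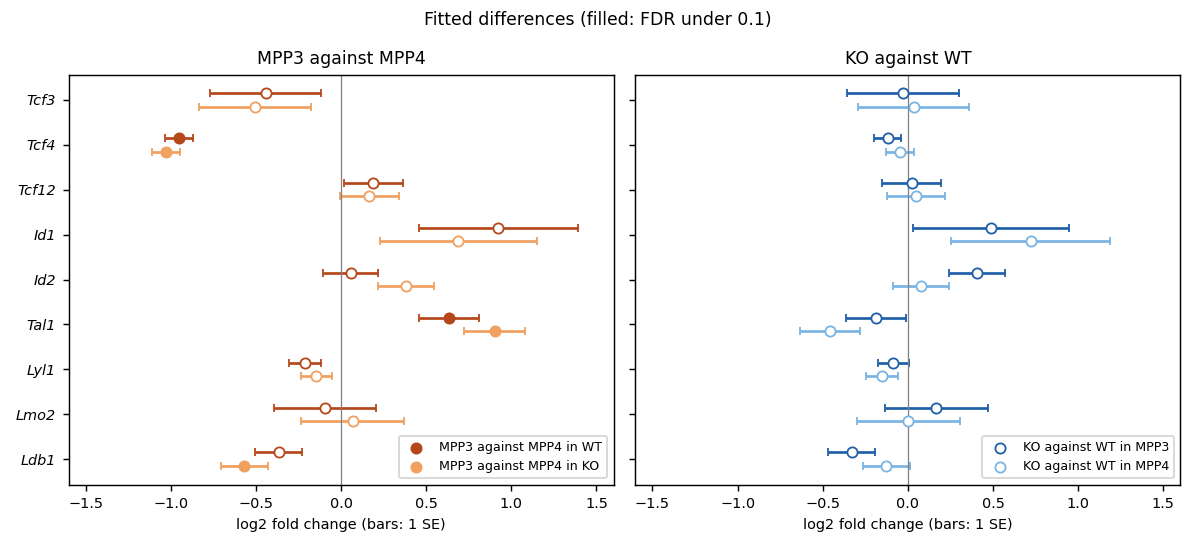
Fitted log2 fold changes (x axis, bars 1 SE) of the 9 members tested (y axis), for MPP3 against MPP4 (left) and KO against WT (right). Filled points passed an edgeR FDR of 0.1: Tcf4 and Tal1 in both genotypes and Ldb1 in KO on the left, and none on the right.

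The comparison of KO with WT asked whether the targeting of Ebf1, a B cell determinant that acts with E proteins, altered these transcripts. No member was called in either population. In MPP3, edgeR called 0.0676% of all genes, DESeq2 1.82% and limma-voom with pairs as random blocks 0.0507%. In MPP4 the shares were 0.0169%, 2.58% and 0.287%, and no member was among the genes called. Groups overlapped for all 10 members in both populations, where 4.58% of all genes tested in MPP3 and 7.27% in MPP4 did not overlap.

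For the E proteins every 95% interval of the KO against WT difference included 0. Tcf4 was at -0.12 ± 0.08 in MPP3, with a 95% interval from -0.30 to 0.058, and at -0.047 ± 0.08 in MPP4, from -0.22 to 0.13. Tcf12 was at 0.022 ± 0.17 in MPP3 and 0.047 ± 0.17 in MPP4. Tcf3 was at -0.031 ± 0.33 in MPP3 and 0.033 ± 0.33 in MPP4, with intervals from -0.75 to 0.68 and from -0.68 to 0.75. At this spread between mice, changes inside those intervals were not detectable.

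Members with the largest differences relative to error were Id2, Ldb1 and Tal1. Id2 was at 0.40 ± 0.16 in MPP3 (edgeR FDR 0.399, interval 0.046 to 0.76), or 0.25 without MPP3 KO library 4, and at 0.076 ± 0.16 in MPP4 (FDR 0.884). Ldb1 was at -0.33 ± 0.14 in MPP3 (FDR 0.421, interval -0.63 to -0.027) and -0.13 ± 0.14 in MPP4 (FDR 0.730), where it was -0.013 without both libraries of KO3 and -0.20 without MPP4 KO library 2 or MPP4 WT library 4. Tal1 was at -0.46 ± 0.18 in MPP4 (FDR 0.289, interval -0.84 to -0.071) and -0.19 ± 0.18 in MPP3 (FDR 0.772), or -0.094 there without MPP3 WT library 2 and -0.28 without MPP3 WT library 3. The intervals are for single genes and are not adjusted for the number of genes.

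Id1 was at 0.49 ± 0.46 in MPP3 and 0.72 ± 0.47 in MPP4 (edgeR FDR 0.772 and 0.536), with 0.29 in MPP3 without MPP3 KO library 3, and in MPP4 0.44 without MPP4 WT library 2 and 1.25 without MPP4 WT library 3. Lyl1 was at -0.085 ± 0.09 and -0.15 ± 0.09 (FDR 0.809 and 0.504), and Lmo2 at 0.17 ± 0.30 and 0.00336 ± 0.30 (FDR 0.901 and 0.997). Id3 was at -0.21 ± 0.66 and -0.41 ± 0.66 in the fit of all genes with at least 1 count (edgeR FDR 1 and 0.938). The difference between the KO effects in MPP3 and MPP4 passed for no member in edgeR (0% of all genes called, with 270 genes at an unadjusted p under 0.05), in DESeq2 (0.0676% called) or with the replicate block (0.0169% called).

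Tcf3 and Lmo2 varied between mice more than most genes. After group means were subtracted, the SD of Tcf3 over libraries was 0.56 on the log2 scale and that of Lmo2 was 0.51, above 92.0% and 89.9% of the 11831 genes tested, whose median was 0.20. Tcf4 (0.12) and Lyl1 (0.14) were below that median. Id1 had the widest spread of the 9 members (0.68), at far lower counts.

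These deviations ran together. Over the 16 libraries, which are 8 pairs scaled by the same normalisation, the deviations of Tcf3 and Lmo2 had a Pearson correlation of 0.94, those of Tcf12 and Lmo2 of 0.81, and those of Tcf3 and Tcf12 of 0.74. Tcf3 with Tal1 had 0.66, while Tcf3 with Lyl1 had -0.13 and with Ldb1 -0.33. Pair WT1 was below its group mean by 0.66 in MPP3 and 1.12 in MPP4 for Tcf3, and by 0.80 and 0.91 for Lmo2. Pair KO4 was below by 0.48 and 0.72 for Tcf3, and by 0.49 and 0.47 for Lmo2. Library totals of these 4 libraries, 32785706 to 41670467 counts, were inside the range of the others.

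Both pairs were female, and female libraries tended to the lower end. Tcf3 in MPP4 ran from 88.9 to 256 CPM in females and from 238 to 331 CPM in males (n = 4 each, 2 WT and 2 KO), and Lmo2 in MPP3 from 295 to 669 CPM and from 622 to 727 CPM. The sexes overlapped for both genes in both populations and were not tested against each other. With sex as a covariate no call of a member changed.

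**Figure D4:**
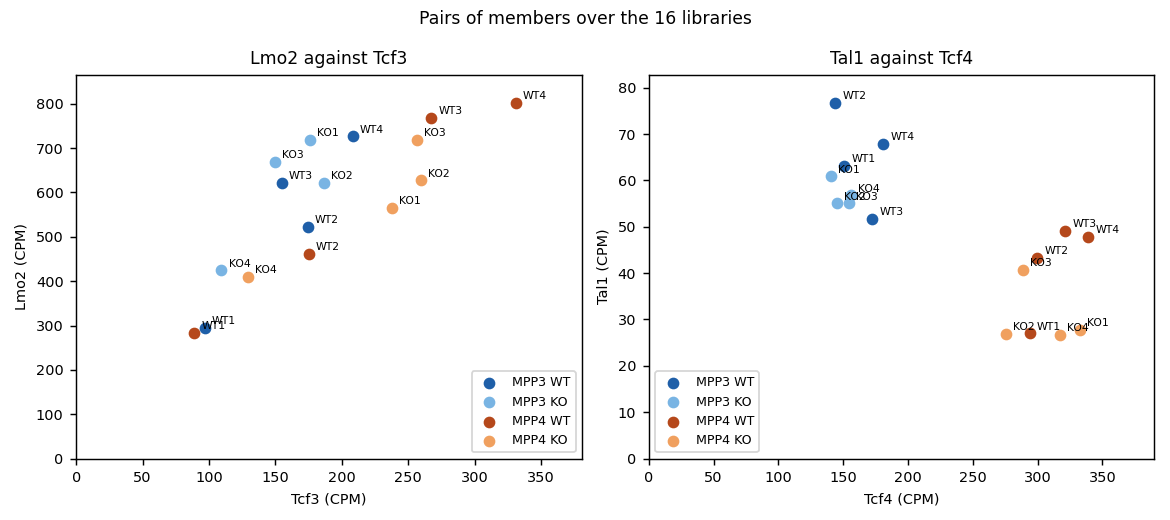
Lmo2 against Tcf3 (left) and Tal1 against Tcf4 (right), both axes in CPM from 0, a point per library labelled by pair and coloured by group. On the left, libraries of pairs WT1 and KO4 lie lowest in both populations; on the right, MPP3 (Tcf4 at 181 CPM or less, Tal1 at 51.8 CPM or more) and MPP4 (Tcf4 at 276 CPM or more, Tal1 at 49.2 CPM or less) form separate clouds.

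Genes whose log2 CPM followed each member most closely over the 16 libraries were listed as a description, since these libraries share populations and pairs. Tcf4 was followed by Tlr7 (Pearson r = 0.980), Il12a (0.980) and Mef2c (0.978), and Tal1 by Tgfbr2 (0.931), Rbpms2 (0.920) and Gata2 (0.904). Lmo2 was followed by Pnrc1 (0.986), Tspan5 (0.973) and Uri1 (0.967), and Tcf3 by Tlnrd1 (0.957) and Med16 (0.955). Tcf12 was followed by Dpp8, Slmap and Med14 (0.925 to 0.936), Lyl1 by Hdac5, Tsc22d4 and Glyr1 (0.921 to 0.941), and Ldb1 by Rnf31 and Csrnp2 (0.893 to 0.939). The Id genes had looser neighbours, Med17, Uap1 and Ccl9 for Id1 (0.823 to 0.858) and Gatad1, Pros1 and Sav1 for Id2 (0.740 to 0.789).

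Around the members, 5 lists of the pathway were counted, and their counts stand beside the 15.1% of all genes called between MPP3 and MPP4 in WT and the 17.9% in KO. Of genes that E proteins activate in lymphoid cells, 12 of 16 were tested, and 6 were lower in MPP3 than in MPP4 of WT and 7 in KO, with none higher. The list's median log2 fold change was -1.59 in WT and -1.79 in KO, where the medians over all genes tested were -0.00039 and -0.0079. Dntt, the terminal transferase of antigen receptor joints, stood at 45.6 ± 8.20 CPM in MPP3 WT and 1258 ± 111 CPM in MPP4 WT (log2 fold change -4.78 ± 0.23, edgeR FDR 8.08e-10). In the same comparison Notch1, the receptor of T cell commitment, was at -2.05 ± 0.20 (FDR 2.42e-06) and Rag2, of the V(D)J recombinase, at -3.28 ± 0.35 (FDR 7.07e-06).

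Of targets and cooperating factors of TAL1, LYL1 and LMO2, 13 of 14 were tested, and 7 were higher in MPP3 of WT and 9 in MPP3 of KO, with none lower, beside 15.1% and 17.9% of all genes called. Their median was 0.58 in WT and 0.71 in KO, against -0.00039 and -0.0079 over all genes tested. Gata2, the GATA partner in stem and progenitor cells, stood at 173 ± 27.1 CPM in MPP3 WT and 49.6 ± 14.1 CPM in MPP4 WT (1.80 ± 0.18, edgeR FDR 3.31e-06). Nfe2, a megakaryocyte and erythroid factor, was also higher in MPP3 WT (0.58 ± 0.08, edgeR FDR 5.51e-05).

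Among LIM and LDB1 complex partners, 10 of 12 were tested and, beside 15.1% of all genes called, 3 were higher in MPP3 of WT, namely Gata2, Gata1 (2.92 ± 0.51, edgeR FDR 0.000911) and Gata3 (0.98 ± 0.17, FDR 0.000877). In KO 4 were higher, beside 17.9% of all genes called, and none was lower in either genotype. The medians were 0.14 and 0.045. Gata1 drives erythroid and Gata3 T cell and innate lymphoid programmes. Of other bHLH and HLH factors, 3 of 16 passed the filter for low counts. Of these, Hes6, a HES relative, was called and was lower in MPP3 in both genotypes (-0.58 ± 0.10, edgeR FDR 0.000555 in WT), while Bhlhe40 (1.14 ± 0.53, FDR 0.221) and Hes1 (-0.23 ± 0.55, FDR 0.876) were not called in WT. The list's median was -0.23 in WT and -0.26 in KO.

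Of BMP and TGF-beta components upstream of the Id genes, 12 of 14 were tested, and 2 were higher and 1 lower in MPP3 in each genotype, beside 15.1% of all genes called in WT and 17.9% in KO, with medians of 0.043 and 0.053. In WT the inhibitory Smad7 was lower (-1.26 ± 0.26, edgeR FDR 0.00355), and the receptors Tgfbr2 (0.34 ± 0.10, FDR 0.0315) and Bmpr2 (0.57 ± 0.18, FDR 0.0492) were higher. Bmpr2 lost its call without MPP3 WT library 3 (FDR 0.159), MPP4 WT library 2 (FDR 0.115) or MPP4 WT library 4 (FDR 0.135), and without both libraries of WT1, WT2 or WT3 (FDR 0.134 to 0.194). Tgfbr2 lost it without both libraries of WT1 (FDR 0.120) or WT2 (FDR 0.122).

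Under KO, edgeR called 1 gene of the 5 lists in MPP4 and none in MPP3, beside 0.0169% and 0.0676% of all genes. Among the genes named here, DESeq2 also called Cd79a (FDR 0.0657) and Lmo4 (FDR 0.0800) in MPP3. Kit, the stem cell factor receptor used in both sort gates, was lower in MPP4 labelled KO, at 408 ± 23.1 CPM against 547 ± 36.0 CPM in WT (-0.42 ± 0.07, edgeR FDR 0.056). That call was lost without MPP4 WT library 1 or 3 or MPP4 KO library 1 or 2 (FDR 0.114 to 0.285), without pair WT1, WT3, KO1 or KO2 (FDR 0.103 to 0.241) and with age as a covariate (FDR 0.259). In MPP3, Kit was at -0.22 ± 0.07 (FDR 0.248) and the homeobox factor Meis1 at -0.30 ± 0.11 (FDR 0.319). The medians of the list that holds Kit were -0.056 in MPP3 and -0.31 in MPP4, beside -0.0055 and -0.013 over all genes tested.

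The E protein target list had medians of -0.082 in MPP3 and 0.20 in MPP4 under KO. Cd79a, a chain of the B cell receptor, stood at 2.68 ± 0.728 CPM in MPP3 WT and 0.329 ± 0.261 CPM in KO (edgeR FDR 0.254, or 0.0657 with DESeq2), and at 3.89 ± 2.68 and 0.281 ± 0.461 CPM in MPP4 (edgeR FDR 0.160, or 0.0822 with sex as a covariate, 0.0698 without MPP4 KO library 3 and 0.0839 without both libraries of KO3). Gfi1, a repressor of myeloid and stem cell genes, was at 0.93 ± 0.36 in MPP3 (FDR 0.364), and Ebf1 at 2.22 ± 0.64 in MPP4 (FDR 0.188, or 0.00482 in a fit of the 8 MPP4 libraries and 0.0210 with limma-voom and pairs as random blocks). In the other lists edgeR made no call. Lmo4, a LIM-only relative of Lmo2, was at 0.40 ± 0.12 in MPP3 (edgeR FDR 0.242), but passed with DESeq2 (0.40, FDR 0.0800), without MPP3 KO library 1 (0.52, FDR 0.0370) and without both libraries of KO1 (0.52, FDR 0.0264). Lmo1 was at 0.66 ± 0.32 in MPP3 and 0.55 ± 0.31 in MPP4, and Gata2 at -0.31 ± 0.17 in MPP4. Hes6 was at 0.13 ± 0.10 in MPP3 and 0.25 ± 0.10 in MPP4, Bhlhe40 at -0.55 ± 0.53 in MPP3 and Hes1 at 0.59 ± 0.54 in MPP4. Smad4 was at 0.27 ± 0.17 in MPP3, Eng at -0.18 ± 0.12 and -0.23 ± 0.12, and Tgfbr2 at -0.20 ± 0.10 in MPP4.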

How the data were processed

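Poly(A) RNA of sorted MPP3 and MPP4 cells was measured in 16 libraries made with a low-input kit. Per the submitters' processing notes the authors used STAR 2.7.3a, featureCounts 2.0.0 and build mm10, and they deposited raw counts per gene with no normalisation for each population. The annotation release and the use of strand are not given in the sources used here, so overlapping genes are uncertain. The authors also deposited a table of normalised signal, the counts divided by DESeq2 size factors, which was not used here.

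Identifiers were matched to GENCODE M21 (GRCm38), 47310 of 47937. The 11831 genes that averaged over 100 counts in at least 1 group went into edgeR 4.0.16 under R 4.3.3 (TMM, quasi-likelihood F-test, 16 libraries, a mean per group) and were called at a Benjamini-Hochberg FDR under 0.1 over all genes. Intervals are the log2 fold change ± 2.18 SE. The 5 contrasts were KO against WT and MPP3 against MPP4 in each stratum, and the interaction. The script was tested on simulated data. Levels are CPM of the TMM-scaled library size, so 3 counts, the limit that a count of 0 allows, equal 0.0619 to 0.118 CPM. The limits cover counting error only. Totals were 24823708 to 48703193 counts.

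Numbers within a genotype pair the libraries: same-numbered libraries share sex and age in the labels, and their deviations correlated at 0.273 to 0.536 in all 8 pairs, and for 15 of 16 libraries the own pair was the best match. Alternatives were DESeq2 1.42.0, DESeq2 size factors, other filters, sex or age as covariate, 8-library fits, blocks for pairs (edgeR, or limma 3.58.1 voom with a within-pair correlation of 0.372), each library left out and, chosen after seeing the data, each pair left out. The members and lists were chosen with earlier results of these data known. The text names all members, at most 3 genes per list by p-value for MPP3 against MPP4 in WT, at most 2 for each KO contrast, and the 3 most correlated genes per member on log2(CPM + 0.1). Some genes that this rule names are not reported here. Promoters come from RefSeq (GRCm38.p6), with none for Tcf4, Id1 and Lmo2.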

Additional observations from a re-analysis of the deposited data

Results flagged for a closer look

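Of 44 groups of 4 libraries examined for a library far from the rest by Dixon's criterion (10 members and the balance in 4 groups), 3 had such a library, where chance gives about 1 in 20. Tcf3 in MPP4 KO library 4 was 129 CPM, below the 238 to 259 CPM of the other libraries of its group. Tal1 in MPP4 KO library 3 was 40.7 CPM, above 26.7 to 27.7 CPM. Id3 in MPP3 WT library 3 was 1.88 CPM, above 0.670 to 0.843 CPM, at 78 counts. No difference between the KO effects in MPP3 and MPP4 passed the interaction test for any member.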

How the results depend on the processing

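No member was called for KO against WT or for the interaction under any alternative. Between MPP3 and MPP4, the 2 members called in WT became 6 with the replicate block that pairs the libraries and 1 to 4 when libraries or pairs were left out, and the 3 called in KO became 5 with the block and 3 to 4 with libraries left out. The replicate block changed no other call of a member. Tcf4 was called in all 32 alternatives in both genotypes, Tal1 in 31 in WT and 32 in KO, and Ldb1 in 7 in WT and 32 in KO. In WT, Ldb1 passed without MPP3 WT library 1 or 2, MPP4 WT library 4 or MPP4 KO library 3, or without pair KO3, besides DESeq2 and the block. Id2 in KO also passed without MPP3 KO library 3 (0.49).

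Small KO against WT differences changed sign, none of them called. Age as a covariate gave -0.073 for Tcf12 and -0.034 for Lmo2 in MPP3, and -0.38 for Tcf3, -0.046 for Tcf12 and -0.20 for Lmo2 in MPP4, and it moved Tcf3 in MPP3 from -0.031 to -0.44. The fit of all genes with at least 1 count gave -0.0046 for Lmo2 in MPP4. Leaving out libraries or pairs gave, in MPP3, -0.21 to 0.13 for Tcf3, -0.15 to 0.16 for Tcf12, -0.14 to 0.0031 for Lyl1 and -0.037 to 0.34 for Lmo2. In MPP4 it gave -0.22 to 0.32 for Tcf3, -0.084 to 0.12 for Tcf12, -0.026 to 0.15 for Id2 and -0.22 to 0.20 for Lmo2. For MPP3 against MPP4 it gave -0.043 to 0.12 for Id2, -0.32 to 0.11 for Lmo2 and -0.96 to 0.28 for Hes1 in WT, and -0.066 to 0.21 for Lmo2 in KO. The cause was not tested.

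Differences between groups in the balance moved by less than the spread between replicates with raw counts, equal weights, the longest transcript or without Id3, but its level did not: the MPP3 WT mean of -2.41 became -2.91 with the longest transcript and -4.32 with raw counts. Leaving out libraries gave 0.47 to 0.93 for MPP3 against MPP4 in WT, 0.74 to 1.16 in KO, 0.19 to 0.58 for KO against WT in MPP3 and -0.11 to 0.39 in MPP4. Id1 and Id3 had the fewest counts.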
